A study of Mus musculus with 9 samples.

Results

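Resident and alternatively activated macrophage genes were followed in injured tibialis anterior muscle, a muscle of the lower hind limb, of old P311-/-, old wild-type and young wild-type mice. The 10 genes, of 54532 in the deposited table, were taken by name: Retnla, Chil3, Cd5l, Cd163, Mrc1, Arg1, Lyve1, Folr2, Timd4 and Marco. Retnla and Cd5l were selected on their FPKM pattern over these same libraries, high and low in old muscle, so their differences are given as a description, with no test. The other 8 stand beside them as genes of the same macrophage programmes.

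Macrophages clear debris after muscle injury, and they exchange signals with muscle stem cells and fibroblasts during repair. Interleukin-4 and interleukin-13, acting through the receptor chain Il4ra and the transcription factor Stat6, switch mouse macrophages to the alternatively activated state, whose classical products in mouse are Retnla, Chil3 and Arg1 and whose classical surface receptor is Mrc1. Tissue-resident macrophages are known by the receptors Lyve1, Folr2, Timd4 and Cd163. Cd5l and Marco are best known from macrophages of the liver, spleen and peritoneum.

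The 3 groups had 3 libraries each. The old P311-/- mice lacked P311 (gene symbol Nrep), a small protein studied in wound repair; their age is labelled as old, with no number of months. The old wild-type mice were 24 months of age and the young wild-type mice 4 to 6 months. All muscles had been injured, by a method and at an interval that no label gives, and no uninjured muscle is among the samples. The labels leave unsaid whether a replicate is 1 animal, so the p-values below reflect spread between libraries that may be technical.

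Reads per library, recovered from the deposited values, numbered 20475248 to 31910890 in old P311-/- libraries. They numbered 17730208 to 23133027 in old and 14222204 to 18249081 in young wild-type libraries. Nrep stood at 14.8, 6.37 and 9.72 FPKM in old P311-/- replicates 1, 2 and 3, against 75.6 ± 6.51 in old and 74.3 ± 11.3 in young wild-type muscle (SD, n = 3 each). FPKM are reads scaled to gene length and library size. Replicate 1 of old P311-/- stood apart from its group. Its mean Euclidean distance over the tested genes was 83.9 to the other old P311-/- libraries and 63.5 to the old wild-type libraries. Mitochondrial reads made up 9.47% to 14.1% of the reads in old P311-/- libraries, 13.2% to 17.6% of those in old and 8.79% to 10.7% of those in young wild-type libraries.

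FPKM are per gene length, so the levels of the 10 genes can be set side by side within a group. In old P311-/- muscle Retnla was the most abundant at 52.4 ± 4.08 FPKM (SD, n = 3), ahead of Mrc1 at 16.8 ± 4.07. Cd163, Folr2 and Lyve1 followed at 7.36, 4.70 and 4.57 FPKM, and the ranges of Folr2 and Lyve1 overlapped. Chil3, Cd5l, Timd4, Arg1 and Marco averaged under 1 FPKM there. Old wild-type muscle had Retnla at 69.5 ± 17.8 and Mrc1 at 19.9 ± 4.35 FPKM at the head of the order, with Chil3 at 1.47 and Timd4, Cd5l, Arg1 and Marco lowest. In young wild-type muscle the order differed: Mrc1 led at 21.2 ± 3.35 FPKM, Retnla had 13.2 ± 15.5, and Cd5l, at 4.28 ± 2.28, lay among Cd163, Folr2 and Lyve1. Their young ranges overlapped that of Cd5l. The place of Retnla rested on young replicate 1, where it had 31.1 FPKM and Mrc1 17.8. In young replicates 2 and 3 Retnla had 3.60 and 4.82 FPKM, below Cd5l at 4.82 and 6.24.

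**Figure D1:**
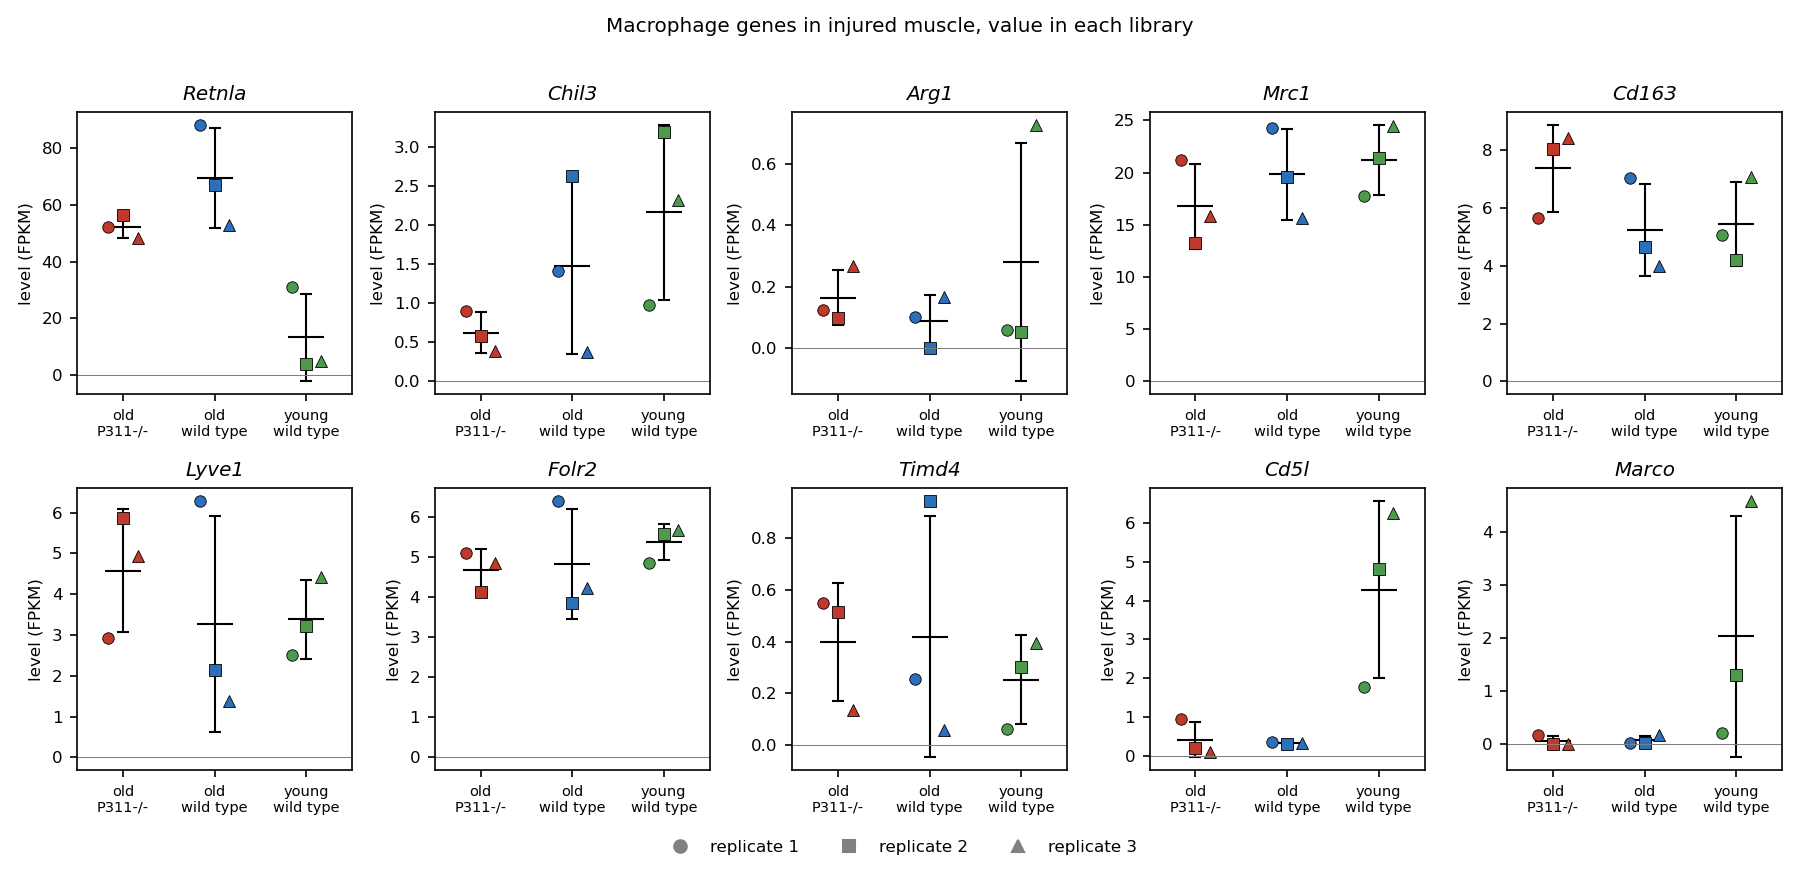
Level of each of the 10 genes in FPKM (vertical axis, linear, own scale per panel) in every library of old P311-/-, old wild-type and young wild-type injured muscle; symbols give the replicate number, and the bar and whiskers the mean ± SD of 3 libraries. Retnla lies between 48.3 and 88.3 FPKM in the 6 old libraries and at 31.1 or below in the young ones, Cd5l and Marco show the opposite order, and the ranges of Mrc1 overlap among all groups.

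Retnla (ENSMUSG00000061100, chromosome 16, 48842551 to 48844461, plus strand, GRCm38) encodes resistin-like alpha, a small protein secreted by alternatively activated macrophages. Cd5l (ENSMUSG00000015854, chromosome 3, 87357881 to 87371073, plus strand) encodes a secreted scavenger receptor cysteine-rich protein that keeps macrophages alive and binds lipids. Marco (ENSMUSG00000026390, chromosome 1, 120474538 to 120505024, minus strand) encodes a class A scavenger receptor that takes up bacteria and particles. These are the 3 genes whose old and young wild-type libraries did not overlap, and their RefSeq promoters (GRCm38.p6, 250 bases before to 50 after the start, 5′ to 3′ on the gene's strand) are shown for that reason. Capitals mark matches on either strand to 3 motifs: STAT6 (TTC and GAA with any 4 bases between them), C/EBP (TTNNGNAA) and PU.1 (GAGGAA), where N is any base. The motifs were chosen with the outcome of a wider search known.

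Retnla, chr16:48842359-48842658, plus strand: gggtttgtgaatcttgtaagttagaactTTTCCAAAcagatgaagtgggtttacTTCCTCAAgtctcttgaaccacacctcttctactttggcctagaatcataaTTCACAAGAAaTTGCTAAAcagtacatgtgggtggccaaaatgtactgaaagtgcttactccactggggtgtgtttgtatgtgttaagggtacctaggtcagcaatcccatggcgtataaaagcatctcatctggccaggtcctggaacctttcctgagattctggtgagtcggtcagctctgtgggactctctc
Cd5l, chr3:87357631-87357930, plus strand: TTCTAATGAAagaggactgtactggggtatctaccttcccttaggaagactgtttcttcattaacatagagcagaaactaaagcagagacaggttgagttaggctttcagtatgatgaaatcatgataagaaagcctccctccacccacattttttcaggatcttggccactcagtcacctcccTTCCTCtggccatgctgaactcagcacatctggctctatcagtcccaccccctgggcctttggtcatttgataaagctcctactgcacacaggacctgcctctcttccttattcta
Marco, chr1:120504975-120505274, minus strand: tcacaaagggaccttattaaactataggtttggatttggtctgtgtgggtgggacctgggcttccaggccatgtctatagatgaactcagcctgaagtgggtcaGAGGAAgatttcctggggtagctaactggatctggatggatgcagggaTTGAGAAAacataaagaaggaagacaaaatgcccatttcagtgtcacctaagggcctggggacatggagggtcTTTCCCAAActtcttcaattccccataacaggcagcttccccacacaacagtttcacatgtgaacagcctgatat

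Counted from 0 at the start site, the Retnla window held a STAT6 match at -145 followed, after 1 base, by a C/EBP match at -134, with further C/EBP matches at -222 and -196. A PU.1 match at -196 overlapped the C/EBP match there. The Cd5l window held a STAT6 match at -250 and a PU.1 match at -66, and the Marco window C/EBP matches at -98, -25 and -24, the last pair overlapping, and a PU.1 match at -146. Of 32851 mouse promoters of the same length, 6.95% held the STAT6 motif, 40.7% the C/EBP motif and 28.3% the PU.1 motif. Promoters were matched for 8 of the 10 genes, all except Arg1 and Lyve1; the STAT6 motif was found in those of Retnla and Cd5l, which lay in opposite orders between old and young muscle, and not in that of Chil3 or Mrc1. A match is a string of letters and no evidence of binding.

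Among the secreted products, Retnla had 52.2, 56.5 and 48.3 FPKM in old P311-/- muscle, 88.3, 67.2 and 53.0 in old wild-type muscle and 31.1, 3.60 and 4.82 in young wild-type muscle. All 6 old libraries lay above all young libraries, while the old P311-/- and old wild-type ranges overlapped. These values rested on 605 to 892, 667 to 1148 and 36 to 282 reads per library. The mean of old wild-type libraries was 5.28 times that of young ones, and the log2 fold change (on FPKM plus 0.1) was 3.04. It was 2.66 for old P311-/- against young wild type and -0.38 for old P311-/- against old wild type. Young replicate 1 was 8.65 times as high as the lowest young library; without it the difference of old from young wild type was 4.00 on the log2 scale, and without young replicate 2 it was 2.46. In a bulk library, fewer cells of a type and less RNA per cell cannot be told apart.

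Retnla made up most of the summed level of the 10 genes in old muscle. Its share was 58.1%, 63.4% and 58.0% in old P311-/-, 65.7%, 66.3% and 66.8% in old wild-type and 48.3%, 7.54% and 7.93% in young wild-type libraries. The summed level of the other 9 genes was 32.7 to 37.6 FPKM in old P311-/-, 26.4 to 46.2 in old and 33.3 to 55.9 in young wild-type muscle. Those ranges overlapped among all groups.

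Chil3 (ENSMUSG00000040809, chromosome 3, 106147554 to 106167564, minus strand), a secreted chitinase-like protein also called Ym1, had 0.902, 0.583 and 0.385 FPKM in old P311-/- muscle. It had 1.41, 2.63 and 0.380 FPKM in old wild-type and 0.971, 3.19 and 2.33 in young wild-type muscle. These levels rested on 42, 17 and 19 reads in old P311-/-, 50, 71 and 15 in old wild-type and 24, 87 and 75 in young wild-type libraries. All old P311-/- libraries lay below all young ones, and the old wild-type libraries spanned both. The log2 fold change of old P311-/- against young wild type was -1.56 (SE 0.62, 95% interval -2.96 to -0.17; limma, adjusted p = 0.196, unadjusted p = 0.0319), so it did not pass. At an unadjusted p under 0.05, 21.4% of all 14233 tested genes stood past that threshold in the same comparison. Chil3 has a near-identical copy, Chil4, listed at 0 in all 9 libraries, and reads of both could have been assigned to Chil3 in the counting.

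Cd5l had 0.947, 0.220 and 0.114 FPKM in old P311-/- muscle, 0.362, 0.326 and 0.346 in old wild-type muscle and 1.78, 4.82 and 6.24 in young wild-type muscle. The lowest young library exceeded the highest of the 6 old ones. The reads were few: 55, 8 and 7 in old P311-/-, 16, 11 and 17 in old wild-type and 55, 164 and 251 in young wild-type libraries. Cd5l reached 0.5 FPKM in 4 of 9 libraries, the 3 young ones and old P311-/- replicate 1, and passed the filter on low values through them. The log2 fold change was -3.23 for old P311-/- and -3.13 for old wild type, each against young wild type, 2 comparisons that share the young libraries. Old P311-/- against old wild type it was -0.10. Without old P311-/- replicate 1 it was -0.77, without replicate 2 it was 0.09 and without replicate 3 it was 0.38, so its direction turned with the library left out.

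Arg1 (ENSMUSG00000019987, chromosome 10, 24915221 to 24927484, minus strand), the arginase of alternatively activated mouse macrophages, was close to the limit of detection. It had 0.126, 0.10 and 0.267 FPKM in old P311-/-, 0.103, 0 and 0.167 in old wild-type and 0.0593, 0.0537 and 0.727 in young wild-type libraries. The reads were 8, 4 and 18 in old P311-/-, 5, 0 and 9 in old wild-type and 2, 2 and 32 in young wild-type libraries, and the groups overlapped throughout. Young replicate 3 held most of the young reads. In two-sided exact permutation tests on log2 values, whose smallest possible p with 3 libraries against 3 is 0.1, the p was 0.5 for old P311-/- against old wild type, 1 against young wild type and 0.7 for old against young wild type.

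Among the scavenger and endocytic receptors, Marco had 0.182, 0 and 0 FPKM in old P311-/- muscle, 0.0239, 0.0314 and 0.172 in old wild-type muscle and 0.206, 1.31 and 4.57 in young wild-type muscle. The reads were 10, 0 and 0 in old P311-/-, 1, 1 and 8 in old wild-type and 6, 42 and 174 in young wild-type libraries. The young libraries lay above all old ones, but young replicate 1 did so only by 0.206 against 0.182 FPKM and with fewer reads than that old P311-/- library. A count of 0 in old P311-/- replicates 2 and 3 allows up to 0.0872 and 0.0516 FPKM, the worth of 3 reads there, with counting error only. Marco failed the filter on low values. Its log2 difference was -3.16 for old P311-/- and -2.94 for old wild type, each against young wild type, with an exact permutation p of 0.1 in both, the smallest possible. The size rests on the pseudocount and on young replicate 3. With a pseudocount of 1 it was -1.24 for old P311-/- and -1.22 for old wild type, with 0.01 it was -5.35 and -4.10, and without young replicate 3 it was -2.21 and -2.0. Against old wild type, old P311-/- differed by -0.22 (exact permutation p = 0.6).

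Mrc1 (ENSMUSG00000026712, chromosome 2, 14229392 to 14332057, plus strand), the mannose receptor CD206, was the most deeply counted of the 10 genes. It had 21.2, 13.2 and 15.9 FPKM in old P311-/-, 24.3, 19.6 and 15.6 in old wild-type and 17.8, 21.4 and 24.5 in young wild-type muscle, and all 3 groups overlapped. The log2 fold change was -0.25 for old P311-/- against old wild type (95% interval -0.73 to 0.24; limma, adjusted p = 0.580). It was -0.35 for old P311-/- against young wild type (-0.83 to 0.13; adjusted p = 0.362) and -0.11 for old against young wild type (-0.59 to 0.38; adjusted p = 0.786), and none passed. The interval of old against young wild type ran from 0.665-fold to 1.30-fold. A microRNA gene, Mir511, lies within Mrc1 on the same strand and stood at up to 1.17 FPKM.

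Cd163 (ENSMUSG00000008845, chromosome 6, 124304656 to 124330527, plus strand), the receptor that takes up haptoglobin-bound haemoglobin, had 5.64, 8.02 and 8.43 FPKM in old P311-/- muscle. It had 7.03, 4.66 and 3.99 FPKM in old wild-type and 5.08, 4.20 and 7.05 in young wild-type muscle. Replicates 2 and 3 of old P311-/- lay above all 6 wild-type libraries, and replicate 1 lay among them. The log2 fold change of old P311-/- against old wild type was 0.51 (SE 0.26, 95% interval -0.07 to 1.08, limma, adjusted p = 0.355). In limma it was 0.68 without old P311-/- replicate 1 (adjusted p = 0.116), 0.43 without replicate 2 (adjusted p = 0.550) and 0.40 without replicate 3 (adjusted p = 0.760). Leaving out single libraries of these groups gave 0.34 to 0.74. Against young wild type old P311-/- had 0.44 (adjusted p = 0.340), and old against young wild type -0.06 (adjusted p = 0.894).

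Lyve1 (ENSMUSG00000030787, chromosome 7, 110850607 to 110863239, minus strand), the hyaluronan receptor shared by perivascular resident macrophages and lymphatic endothelium, had 2.92, 5.86 and 4.93 FPKM in old P311-/- muscle. It had 6.28, 2.15 and 1.38 FPKM in old wild-type and 2.51, 3.22 and 4.42 in young wild-type muscle. Old wild-type muscle held both the highest and the 2 lowest libraries. The log2 fold change of old P311-/- against old wild type was 0.70 (SE 0.48, 95% interval -0.39 to 1.78; limma, adjusted p = 0.481), and it was 0.24 to 1.30 when single libraries of these groups were left out. The summed level of 7 lymphatic endothelial markers, Lyve1 among them, was 17.7 to 26.5 FPKM in old P311-/-, 11.2 to 24.6 in old and 30.8 to 37.6 in young wild-type muscle. None of the 7 was at 0 in any library, and how much of the Lyve1 level came from lymphatic cells was not tested.

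Folr2 (ENSMUSG00000032725, chromosome 7, 101839988 to 101857194, minus strand), folate receptor beta, had the smallest SE of the 6 tested genes, 0.19 on the log2 scale. It had 5.10, 4.12 and 4.86 FPKM in old P311-/-, 6.41, 3.86 and 4.23 in old wild-type and 4.87, 5.57 and 5.70 in young wild-type muscle, with overlap among all groups. Its log2 fold change was -0.01 for old P311-/- against old wild type (95% interval -0.43 to 0.41; limma, adjusted p = 0.980). It was -0.19 for old P311-/- (-0.62 to 0.23; adjusted p = 0.568) and -0.18 for old wild type (-0.60 to 0.24; adjusted p = 0.569), each against young wild type. The gene Gm10602 overlaps Folr2 on the opposite strand at 0.215 to 0.728 FPKM, and whether strand was used in counting is not given.

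Timd4 (ENSMUSG00000055546, chromosome 11, 46810800 to 46844332, plus strand), the phosphatidylserine receptor Tim-4 of long-lived resident macrophages, was low and uneven. It had 0.549, 0.515 and 0.137 FPKM in old P311-/-, 0.255, 0.944 and 0.0571 in old wild-type and 0.0608, 0.303 and 0.396 in young wild-type muscle. The groups overlapped, and the 95% interval of old P311-/- against old wild type ran from -1.47 to 1.94 on the log2 scale (limma, adjusted p = 0.896), an interval that includes a 2-fold difference in either direction.

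Of the 6 genes tested that had not been picked, Chil3, Cd163, Mrc1, Lyve1, Folr2 and Timd4, none passed in limma at an adjusted p under 0.05 in any comparison. Over all tested genes 0.0703% passed for old P311-/- against old wild type, 0.4% for old P311-/- against young wild type and 5.4% for old against young wild type. This last share was 768 genes, 482 higher and 286 lower, and the split was 96 and 250 under total-count scaling and 332 and 346 under upper-quartile scaling. At an unadjusted p under 0.05 the 6 genes gave 0 for old P311-/- against old wild type (16.1% of all tested genes), 1, Chil3, for old P311-/- against young wild type (21.4%) and 0 for old against young wild type (26.3%). Values did not overlap between old P311-/- and old wild type for 0 of the 10 genes, beside 18.0% of all tested genes. They did not overlap for 4 between old P311-/- and young wild type (Retnla, Chil3, Cd5l and Marco; 23.5%) and for 3 between old and young wild type (Retnla, Cd5l and Marco; 37.1%). Retnla and Cd5l were in these counts by choice, and nothing is read from them.

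**Figure D2:**
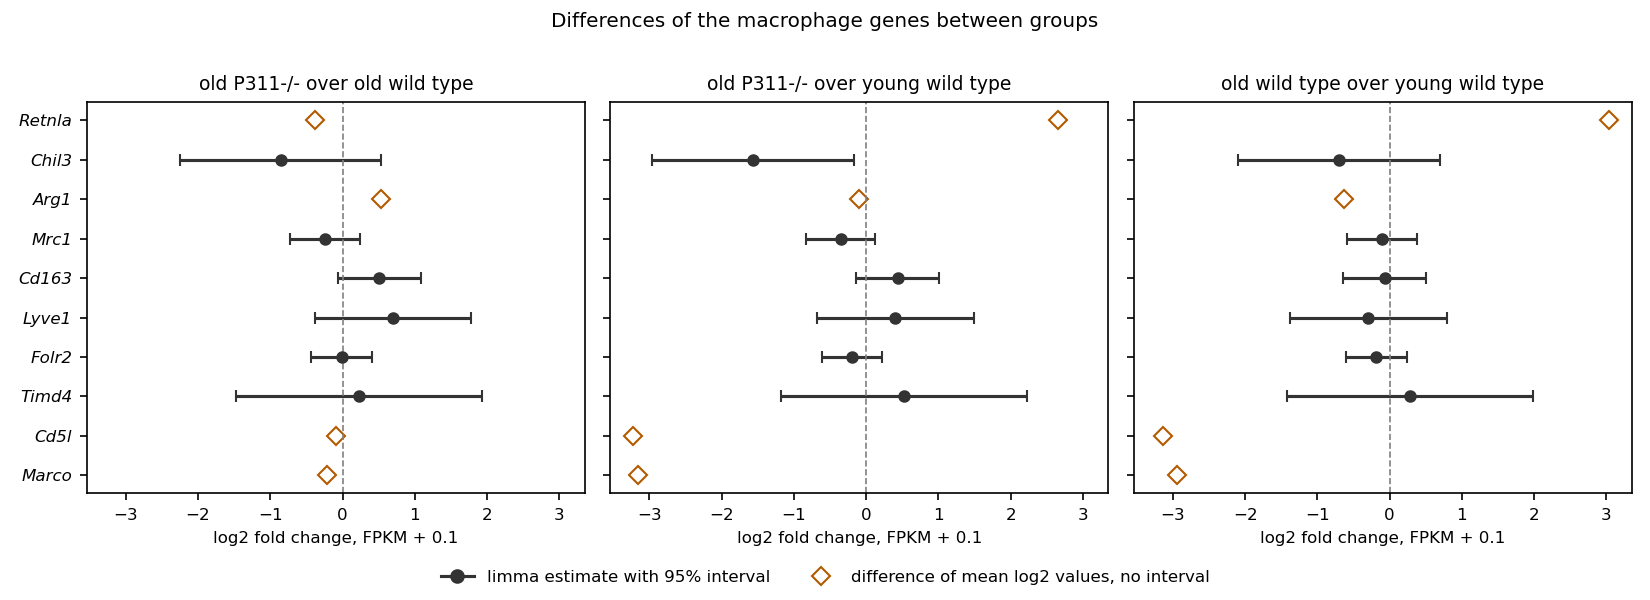
Log2 fold changes on FPKM plus 0.1 (horizontal axis) of the 10 genes in the 3 comparisons, positive where the first group named is higher. Filled points with bars are limma estimates with 95% intervals for the 6 tested genes that were not picked; open diamonds are differences without an interval, for the picked Retnla and Cd5l and for Arg1 and Marco, which failed the filter. Of the intervals shown, that of Chil3 in old P311-/- against young wild type, -2.96 to -0.17, is the one that does not cross 0.

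General macrophage markers were set beside these genes. The summed level of 18 pan-macrophage markers was 1171 to 2590 FPKM in old P311-/-, 1967 to 2740 in old and 2507 to 3471 in young wild-type muscle, with overlap between all groups, and none of the 18 was at 0 in any library. No marker passed the test in any comparison (limma; at an unadjusted p under 0.05, 4 for old P311-/- against old wild type, beside 16.1% of all tested genes, 14 for old P311-/- against young wild type, beside 21.4%, and 3 for old against young wild type, beside 26.3%). Their median log2 fold change was -0.34 for old P311-/- against old wild type, -0.82 for old P311-/- against young wild type and -0.45 for old against young wild type, while the median over all tested genes lay between -0.0039 and 0.014. Retnla lay in the opposite order to the markers between old and young muscle, and Cd5l and Marco in the same order with a larger difference.

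Each gene was therefore also expressed per 1000 FPKM of the marker sum, a measure added after the values were seen; Lyz2, Cd74 and C1qb made up 70.0% of that sum on average. On it Retnla stood at 33.0 (20.2 to 48.2) in old P311-/-, 29.7 (22.6 to 34.2) in old and 5.02 (1.27 to 12.4) in young wild-type muscle. Cd5l stood at 0.208 in old P311-/-, 0.149 in old and 1.40 in young wild-type muscle, and its old and young libraries again did not overlap. Marco stood at 0.0234 in old P311-/-, 0.0327 in old and 0.620 in young wild-type muscle. Mrc1 stood at 9.83 (8.19 to 11.3) in old P311-/-, 8.51 (6.68 to 9.96) in old and 7.24 (7.05 to 7.58) in young wild-type muscle, so its order was the reverse of that in FPKM. Folr2 stood at 2.85 in old P311-/-, 2.04 in old and 1.85 in young wild-type muscle, likewise the reverse of its FPKM order, with overlapping libraries. Lyve1 was at 3.08 in old P311-/-, 1.32 in old and 1.14 in young wild-type muscle, old P311-/- being highest on both measures and the libraries overlapping. Cd163 stood at 4.78 (2.18 to 6.85) in old P311-/-, 2.21 (1.71 to 2.57) in old and 1.85 (1.48 to 2.03) in young wild-type muscle. Chil3 stood at 0.363 (0.243 to 0.498) in old P311-/-, 0.671 (0.163 to 1.33) in old and 0.728 (0.387 to 1.13) in young wild-type muscle. Its old P311-/- and young libraries, apart in FPKM, overlapped on this measure (log2 difference -0.86, exact permutation p = 0.2). Arg1 and Timd4 overlapped among all groups on it. For both Mrc1 and Cd163 the old P311-/- libraries lay above all young ones (exact permutation p = 0.1, the smallest possible), and old P311-/- replicate 1 was the lowest of its group for both. The log2 differences were 0.43 for Mrc1 and 1.22 for Cd163. The marker sum itself differed by -0.78 on the log2 scale in that comparison, which raises any gene of unchanged FPKM on this measure. How many of all genes would separate in the same way was not computed. Whether the marker levels account for the order of Mrc1 in FPKM was not tested.

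**Figure D3:**
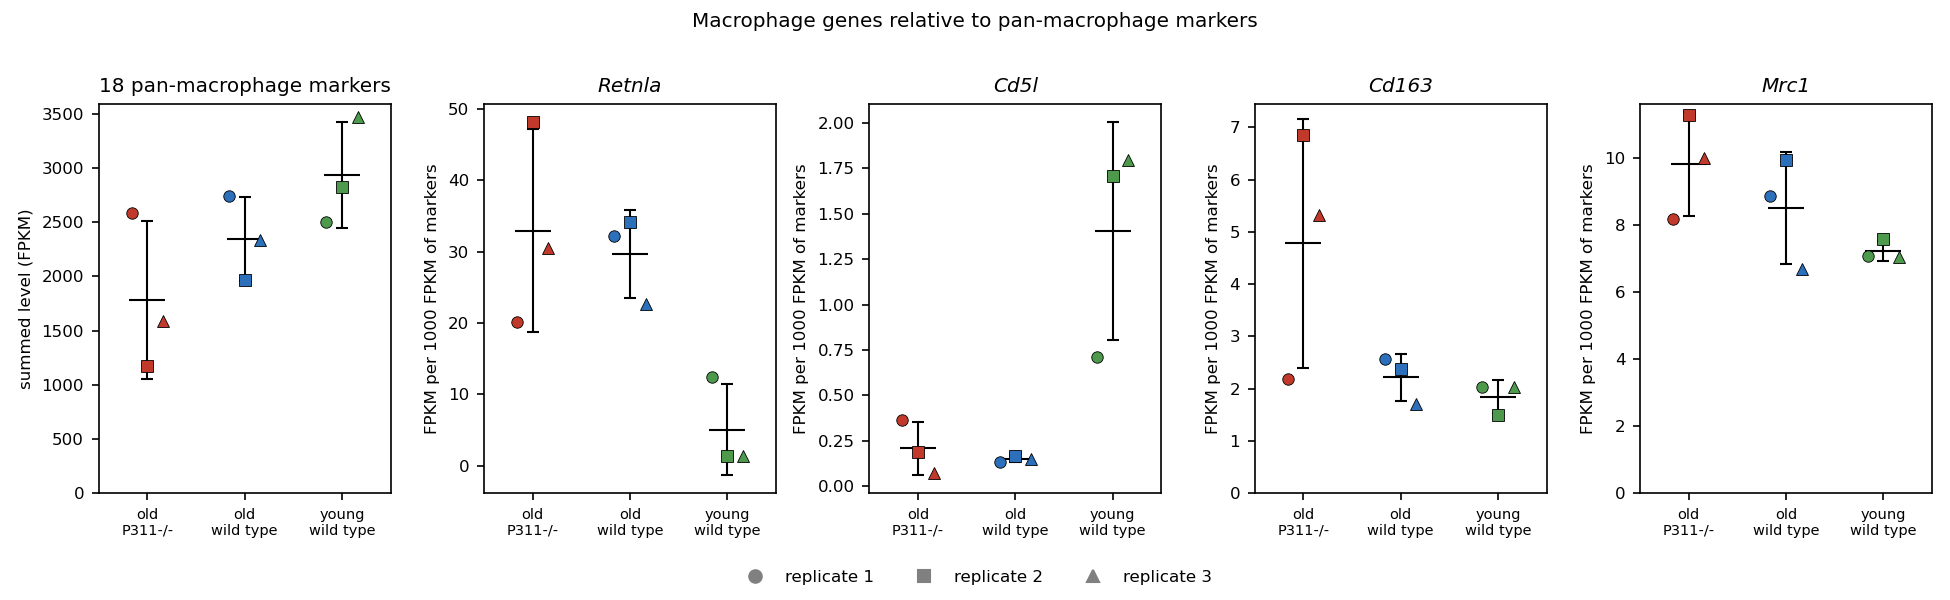
Left panel, summed FPKM of 18 pan-macrophage markers in each library; other panels, FPKM of Retnla, Cd5l, Cd163 and Mrc1 per 1000 FPKM of that sum. Groups run from old P311-/- over old wild type to young wild type, symbols give the replicate number, and the bar and whiskers the mean ± SD of 3 libraries. Retnla stays between 20.2 and 48.2 in the old libraries and at 12.4 or below in the young ones, and Mrc1 is at 8.19 or more in all old P311-/- libraries, against 7.58 or less in young ones. The marker sum, by which each value is divided, has a lower mean in old P311-/- than in young wild-type muscle.

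Of 21 tested genes of the interleukin-4 and interleukin-13 axis, 1 passed as higher and 1 as lower in old against young wild type (limma). This was beside 5.4% of all genes. None passed in old P311-/- against old wild type (0.0703% of all genes) or against young wild type (0.4%). At an unadjusted p under 0.05 in limma there were 9 for old against young wild type (26.3% of all tested genes). For old P311-/- there were 2 against old wild type (16.1%) and 10 against young wild type (21.4%). Mgl2, a C-type lectin of alternatively activated macrophages, had 7.57, 6.77 and 7.85 FPKM in old and 4.89, 4.31 and 3.09 in young wild-type muscle, a log2 fold change of 0.86 (SE 0.18, adjusted p = 0.0358). Ppargc1b, a coactivator of mitochondrial genes, had 1.98, 2.42 and 2.45 FPKM in old and 5.97, 6.09 and 5.02 in young wild-type muscle, a log2 fold change of -1.28 (SE 0.16, adjusted p = 0.0246); it is also expressed by muscle fibres. Both calls were lost without old wild-type replicate 2 or 3 or any 1 of the young libraries, with adjusted p of up to 0.120 for Mgl2 and 0.114 for Ppargc1b over the alternatives. Both were also lost with no filter on low values and with a replicate block. The call of Mgl2 was lost too under total-count scaling and without old wild-type replicate 1. Of the 21, 15 had a log2 fold change below 0, with a median of -0.24 beside 0.0050 over all tested genes.

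The upstream genes of the axis were present. Il4ra had 4.99, 3.29 and 4.29 FPKM in old P311-/-, 5.05, 4.06 and 3.59 in old wild-type and 5.59, 6.50 and 5.94 in young wild-type muscle. Stat6 had 9.78, 8.49 and 9.48 FPKM in old P311-/-, 10.3, 9.13 and 9.09 in old wild-type and 10.3, 14.5 and 14.7 in young wild-type muscle. Neither passed in old against young wild type, at -0.51 for Il4ra (limma, adjusted p = 0.113) and -0.45 for Stat6 (adjusted p = 0.102). The cytokine gene Il4 had 0.270 to 1.06 FPKM in old P311-/-, 0.443 to 1.59 in old and 0.780 to 1.07 in young wild-type libraries, and Il13 was listed at 0 in all but 1 library. Ccl24, a chemokine for eosinophils, had 4.74, 3.71 and 4.63 FPKM in old P311-/-, 4.84, 4.80 and 2.05 in old wild-type and 1.33, 2.13 and 0.782 in young wild-type muscle, with adjusted p = 0.0839 for old P311-/- and 0.0611 for old wild type, each against young wild type in limma.

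Markers of eosinophils, a source of interleukin-4 in mouse muscle and a cell type that can carry alternative activation genes, were followed beside Retnla. The summed level of 9 such markers was 2.97 to 6.01 FPKM in old P311-/-, 7.65 to 8.43 in old and 2.14 to 4.79 in young wild-type muscle. Most of it was Ear2, a ribonuclease also made by macrophages, which had 5.46, 3.50 and 2.90 FPKM in old P311-/-, 8.14, 6.55 and 8.12 in old wild-type and 3.86, 3.0 and 1.55 in young wild-type muscle. Ear2 was the one marker tested, and it was higher in old than in young wild type (1.49 on the log2 scale, SE 0.32, limma, adjusted p = 0.0368). Its call was kept in 10 of 19 alternatives, with adjusted p of up to 0.120. It was lost without any 1 wild-type library, with no filter on low values, under total-count scaling and with a replicate block. The defining granule gene Epx was at 0 in all 9 libraries, as were Ear1 and Ear6, and Prg2 did not exceed 0.473 FPKM.

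In the families of the secreted products, Retn, a relative of Retnla, had 6.53, 2.09 and 2.58 FPKM in old P311-/-, 3.12, 1.45 and 2.07 in old wild-type and 3.47, 1.82 and 1.60 in young wild-type muscle, with overlap among all groups. Retnlb was at 0 in all libraries. Retnlg, a neutrophil product, had 0 to 1.13 FPKM in old P311-/-, 1.12 to 3.15 in old and 0.557 to 1.11 in young wild-type muscle. Its old wild-type libraries lay above the young ones only by 1.12 against 1.11 FPKM, beside 37.1% of all tested genes without overlap there. It did not pass (limma, adjusted p = 0.537). Chia1, an acidic chitinase, was the one gene of 5 tested to pass in old against young wild type, beside 5.4% of all genes. It had 0.896, 0.381 and 0.478 FPKM in old and 0.173, 0.0314 and 0.0266 in young wild-type muscle (1.98 on the log2 scale, SE 0.46, limma, adjusted p = 0.0440). The call was kept in 4 of 18 alternatives, with adjusted p of up to 0.137. Leaving out any 1 wild-type library, or old P311-/- replicate 2 or 3, lost it. So did a pseudocount of 1, no filter on low values, total-count scaling, voom, a fit of the 6 libraries and a replicate block. Old P311-/- libraries had Chia1 at 0.479, 0.823 and 0.661 FPKM.

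Among 25 other genes of resident macrophages, all tested, none passed as higher and 2 passed as lower in old against young wild type (5.4% of all genes in either direction, limma). None passed in old P311-/- against old wild type (0.0703% of all genes) or against young wild type (0.4%). Stab1, a scavenger receptor of resident macrophages and sinusoidal endothelium, was 1 of the lower ones, with 7.78, 5.85 and 6.90 FPKM in old and 10.7, 15.1 and 16.2 in young wild-type muscle (-1.01 on the log2 scale, SE 0.21, limma, adjusted p = 0.0335). Its call was kept in 11 of 19 alternatives, with adjusted p of up to 0.126. It was lost without old wild-type replicate 2 or 3 or any 1 young library. No filter on low values, total-count scaling and a replicate block also lost it. The median log2 fold change of the 25 in that comparison was 0.02, beside 0.0050 over all tested genes. Vsig4, a complement receptor of resident macrophages, had 2.79, 1.32 and 2.01 FPKM in old P311-/-, 2.67, 0.651 and 1.12 in old wild-type and 0.801, 0.443 and 0.648 in young wild-type muscle, with adjusted p = 0.126 for old P311-/- against young wild type.

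Of 25 tested scavenger receptor and efferocytosis genes, 1 was higher and 3 were lower in old against young wild type, beside 5.4% of all genes called. All 4 calls were lost without old wild-type replicate 2 or 3 or any 1 young library, with adjusted p of up to 0.161 over the alternatives. All 4 were also lost with no filter on low values and with a replicate block. Cd36, a fatty acid and lipoprotein receptor that muscle fibres and endothelium also carry, was higher by 1.05 on the log2 scale (SE 0.18; limma, adjusted p = 0.0307). Beside Stab1, the lower ones were Lrp1, a large endocytic receptor, at -1.02 (SE 0.18, adjusted p = 0.0307), and Itgb3, an integrin chain, at -0.83 (SE 0.20, adjusted p = 0.0486). The call of Itgb3 was kept in 7 of 19 alternatives and was also lost without old wild-type replicate 1. Among 19 tested genes of liver X receptor signalling and Kupffer cells, the liver macrophages in which Cd5l is abundant, none passed as higher in old against young wild type. In that comparison 1 passed as lower, beside 5.4% of all genes. None of the 19 passed in old P311-/- against old wild type (0.0703% of all genes) or against young wild type (0.4%). The liver X receptor gene Nr1h3, known to drive Cd5l in mouse macrophages, had 4.45, 6.98 and 6.80 FPKM in old P311-/-, 6.18, 4.10 and 4.99 in old wild-type and 6.83, 8.28 and 9.22 in young wild-type muscle (-0.67 for old against young wild type, adjusted p = 0.0888). The Kupffer cell lectin Clec4f was at 0 in all 9 libraries. None of 16 tested genes of arginine and polyamine metabolism passed in any comparison; at an unadjusted p under 0.05 there were 3 for old P311-/- against old wild type (16.1% of all tested genes), 3 for old P311-/- against young wild type (21.4%) and 1 for old against young wild type (26.3%). Nos2, the enzyme that competes with Arg1 for arginine, had 0.697 to 1.19 FPKM in old P311-/-, 0.919 to 1.12 in old and 0.551 to 1.36 in young wild-type libraries.

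**Figure D4:**
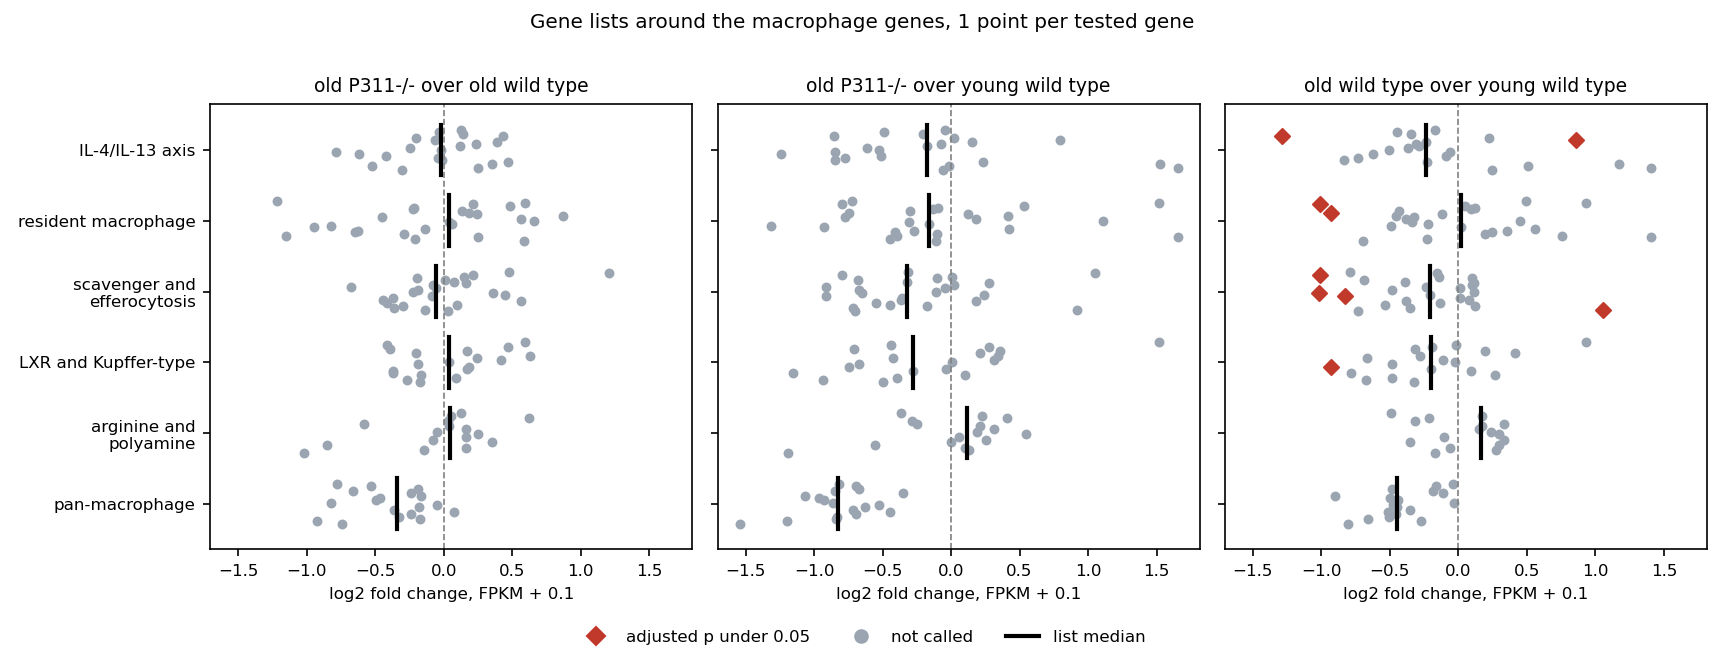
Log2 fold changes on FPKM plus 0.1 (horizontal axis) of the tested genes of 6 lists in the 3 comparisons, positive where the first group named is higher; each point is 1 gene, a red diamond passed at an adjusted p under 0.05 and the black line is the list median. Passing genes appear in old against young wild type alone among these panels, and the pan-macrophage median is below 0 in all 3.

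The genes whose levels followed Retnla most closely over the 9 libraries, of 10862 considered, were Cd33, Fam50a, Zfp638, Kansl1l and Mir133a-2, with Pearson correlations of 0.97, 0.96, 0.96, 0.94 and 0.94. Cd33, a sialic acid-binding receptor of myeloid cells, averaged 2.76 FPKM in old P311-/-, 2.68 in old and 1.77 in young wild-type muscle. The closest to Cd5l were Fyb, Lrrk1, Mast3, Itgb7 and Tep1 (0.97, 0.97, 0.97, 0.96 and 0.96). Fyb, an adaptor protein of T cells and myeloid cells, averaged 2.17 FPKM in old P311-/-, 2.64 in old and 5.57 in young wild-type muscle. The closest to Mrc1 were Myd88, Ms4a6c, Snx2, Ms4a6d and Fgl2 (0.97, 0.96, 0.95, 0.95 and 0.95), of which Ms4a6c and Ms4a6d are membrane proteins of myeloid cells. The correlations describe 9 libraries in 3 groups that share depth and composition, and no test was made of them.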

How the data were processed

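The deposited values were FPKM, computed by the authors for 54532 genes in 9 libraries, with gene lengths in bases as the authors gave them. The submitters' processing notes name HISAT2 2.2.1, featureCounts 2.1.1, DESeq2 1.42.0 and the build mm39, with no options. Gene positions were those of GRCm38: 98.33% of shared identifiers had the same position in GENCODE M21. FPKM times gene length and 1 constant per library gave whole reads (tolerance 0.001), which served for depth, filters and the fits with voom.

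Tests used limma 3.58.1 (R 4.3.3; with its trend and robust options) on log2 of FPKM plus 0.1, over 14233 genes with at least 0.5 FPKM and 10 reads in 3 libraries; all 9 libraries entered 1 fit. P-values were adjusted by the Benjamini-Hochberg method over all tested genes, and fold changes of low genes are understated. Genes that failed the filter, and marker sums, had two-sided exact permutation tests. Euclidean distances were taken on the same scale. Promoters came from RefSeq. The fit was also run on simulated counts with the same spread setting for all genes and no library standing apart. These data differ from that setting, since old P311-/- replicate 1 stood apart from its group. Members and gene lists were chosen with earlier results of these data known. All 10 genes are named; of each list, those with the smallest p or that define it were eligible to be named, except 1 that is not reported here, and likeness was taken over tested genes of at least 1 FPKM. Alternatives were other pseudocounts, filters, scalings and fits, and leaving out each library.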

Additional observations from a re-analysis of the deposited data

How the results depend on the processing

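Depth limits Arg1, Marco, Timd4, Cd5l and Chil3, which had under 20 reads in several libraries. Timd4 has no value under the stricter filter of 1 FPKM; Arg1 and Marco have values under the pseudocounts, both scalings, no filter and libraries left out only. The number of the 6 tested genes that passed was 0 in every comparison under every alternative, including each library left out (0 to 0), except voom with library quality weights (0.213 for old P311-/- replicate 1), which gave 1 for old P311-/- against old wild type (Cd163, 0.72, adjusted p = 0.0191) and 3 against young wild type (Mrc1 -0.43, adjusted p = 0.0398; Cd163 0.61, 0.0321; Chil3 -2.19, 0.0365). Beside them, quality weights passed 4211 of all 14233 tested genes for old P311-/- against old wild type and 4422 against young wild type. Total-count scaling lowered the median of all genes to -0.12 in old against young wild type and to -0.13 in old P311-/- against young; Retnla was then at 2.91 and 2.52, and Cd5l at -3.25 and -3.34. With a pseudocount of 1, Cd5l was at -1.86 and -1.82. Among genes that did not pass, the direction of some turned. Quality weights turned Folr2 to 0.056 and Timd4 to -0.52 for old P311-/- against old wild type and Timd4 to -0.26 against young wild type. Leaving out single libraries, the range was -0.15 to 0.21 for Folr2 and -0.42 to 0.95 for Timd4 in old P311-/- against old wild type, and -0.30 to 0.14 for Cd163, -0.26 to 0.053 for Mrc1, -0.90 to 0.16 for Lyve1 and -0.43 to 0.94 for Timd4 in old against young wild type. The cause was not tested.

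Counts over all genes moved more. For old P311-/- against old wild type 10 genes passed; 6 did in a fit of the 6 libraries, 4 with a replicate block, 4211 with quality weights and 4 to 1875 with a library left out (1875 without old P311-/- replicate 1; 6, 4 and 5 without old wild-type replicates 1, 2 and 3). Against young wild type, 57 genes passed for old P311-/-; it was 87 with a pseudocount of 1, 23 with no filter, 34 under total-count scaling, 139 with voom, 4422 with quality weights, 12 in a fit of the 6 libraries, 5 with a replicate block and 4 to 2785 with a library left out (2785, 10 and 8 without old P311-/- replicates 1, 2 and 3, 37, 11 and 21 without old wild-type ones and 15, 10 and 4 without young ones). For old against young wild type 768 passed; it was 5 with no filter, 346 under total-count scaling, 3001 with quality weights, 1653 in a fit of the 6 libraries, 0 with a replicate block and 0 to 1755 with a library left out (1755 and 435 without old P311-/- replicates 1 and 3, 0 and 10 without old wild-type replicates 2 and 3, 14, 1 and 0 without young replicates 1, 2 and 3). Libraries with the same replicate number did not deviate together more than others (correlations -0.101 to 0.145, against -0.159 to 0.214 for different numbers). This gives no sign that the numbers pair them. Deviations from means of 3 libraries cannot exclude a pairing.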
